A study of Mus musculus with 16 samples.

Results

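The step from common dendritic cell progenitor (CDP) to classical dendritic cell (cDC) was followed through H3K27ac, acetylation of lysine 27 of histone H3. It was described over every autosomal region of the list that compares these cell types, 75217 of the 273958 regions in the 4 deposited lists. Another 1648 regions of the same list, on X and Y, were left out. The study profiled 4 cell types of C57BL/6 mice, multipotent progenitor (MPP), CDP, cDC and plasmacytoid dendritic cell (pDC), by chromatin immunoprecipitation and sequencing with 2 H3K27ac libraries for each. The 4 libraries used here were 2 of CDP and 2 of cDC, from sorted cells with no treatment or genetic change given in the labels, which name strain, cell type and antibody but not the gates of the sort, sex or age. Nothing in the labels ties the paired libraries of a cell type to different animals or cultures, so p-values measure only the spread between these libraries, which may be technical. Read depth is unknown, because the deposited signals are whole numbers that had been scaled for each library.

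H3K27ac marks active promoters and enhancers, and its loss or gain along differentiation shows where regulatory DNA is switched off or on. CDPs are bone marrow progenitors restricted to dendritic cells, and cDCs are the cells that take up antigen, display its peptides on major histocompatibility complex (MHC) molecules and prime T cells. Class II display needs the paired alpha and beta chains, the invariant chain Cd74, the peptide editors H2-DM and H2-DO, and the coactivator Ciita, which is recruited to class II promoters by factors bound at the X box and the Y box. A progenitor programme of Hox, Ets and Runx factors and the cell cycle machinery are known to recede as blood cells mature.

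The class II promoters are shown first because every class II locus was higher in cDC. RefSeq sequences (GRCm38.p6) were available for 8 of the 11 class II genes listed, and the 150 bases before the annotated start were read, with capitals for TGATTGG, the core of the Y box, and for CNNATGNTG, part of the X box. Of the 8, 6 are shown, among them the 5 that hold both motifs. H2-Oa, with the Y box letters, and H2-DMa, whose windows before its annotated starts hold neither, are not shown. On chromosome 17 the windows are chr17:34287824-34287973 (minus strand) for H2-Aa, and, on the plus strand, chr17:34305717-34305866 for H2-Eb1, chr17:34325525-34325674 for H2-Eb2, chr17:34153041-34153190 for H2-DMb1, chr17:34145099-34145248 for H2-DMb2 and chr17:34238755-34238904 for H2-Ob.
H2-Aa: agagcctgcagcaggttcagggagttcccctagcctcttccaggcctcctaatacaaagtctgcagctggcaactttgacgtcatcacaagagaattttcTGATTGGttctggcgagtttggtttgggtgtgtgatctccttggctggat
H2-Eb1: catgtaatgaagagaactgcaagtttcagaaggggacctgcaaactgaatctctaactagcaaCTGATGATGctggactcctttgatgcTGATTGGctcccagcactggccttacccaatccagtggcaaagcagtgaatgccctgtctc
H2-Eb2: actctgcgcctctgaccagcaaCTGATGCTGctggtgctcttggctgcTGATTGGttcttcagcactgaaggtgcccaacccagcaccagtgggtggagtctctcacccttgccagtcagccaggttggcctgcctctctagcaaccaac
H2-DMb1: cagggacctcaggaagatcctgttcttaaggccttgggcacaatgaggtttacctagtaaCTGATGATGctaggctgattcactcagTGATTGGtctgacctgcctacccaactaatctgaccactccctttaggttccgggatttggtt
H2-DMb2: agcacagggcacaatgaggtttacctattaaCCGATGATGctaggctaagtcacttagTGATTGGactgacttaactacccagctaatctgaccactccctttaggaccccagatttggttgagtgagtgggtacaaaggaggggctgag
H2-Ob: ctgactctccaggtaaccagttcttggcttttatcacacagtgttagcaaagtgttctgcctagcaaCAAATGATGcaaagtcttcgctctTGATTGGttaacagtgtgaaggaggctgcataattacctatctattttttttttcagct
Both strands were searched, and the motifs do not overlap each other in these windows. TGATTGG was in 7 of the 8 class II genes and in 5.71% of 32851 promoters, and CNNATGNTG was in 5 of the 8 and in 5.49% of all promoters. Both were present in 5 of the 8 and in 0.31% of all, 102 promoters. The letters were chosen after these promoters had been seen, so the counts describe the sequences and support nothing about the factors that bind there.

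More regions were higher in CDP than in cDC. The mean signal was higher in cDC in 32220 regions (42.8%) and higher in CDP in 42991 (57.2%). A region was counted as having separate libraries where both libraries of a cell type lay above both of the other, which held for 16563 regions higher in cDC (22% of all) and 27226 higher in CDP (36.2% of all). In the remaining 31428 regions (41.8%) the libraries overlapped between the cell types. Among regions with separate libraries the median log2 ratio of mean signals, each plus 1, was 1.00 for those higher in cDC and -1.27 for those higher in CDP. At least 2-fold differences with separate libraries were found in 8267 regions (11%) higher in cDC and 16605 (22.1%) higher in CDP. Regions under 500 bp leaned most to CDP, with 29.7% of those with separate libraries higher in cDC, against 41.4% to 43.8% at lengths from 500 to 5000 bp and 38.2% above that. On every autosome fewer regions with separate libraries were higher in cDC than in CDP, from 34.4% higher in cDC on chromosome 8 to 41.2% on chromosome 9.

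**Figure D1:**
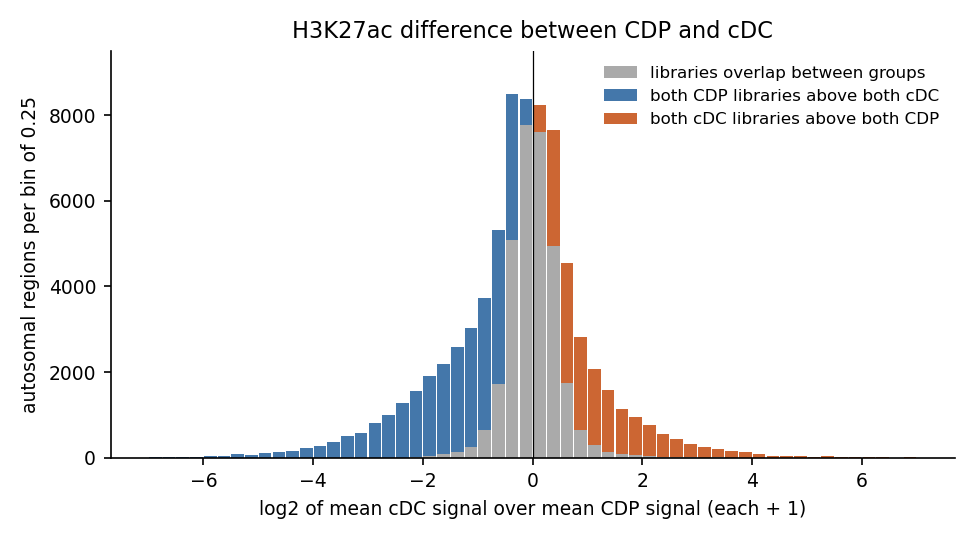
Number of autosomal regions (vertical axis) in bins of 0.25 of the log2 ratio of mean cDC to mean CDP signal, each plus 1 (horizontal axis, values beyond the ends drawn in the last bin). Colours give the 16563 regions with both cDC libraries higher, the 27226 with both CDP libraries higher and the 31428 whose libraries overlapped; the arm on the CDP side is longer and fuller.

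A limma fit on log2(signal + 1) over all 75217 regions put 5828 (7.75%) higher in cDC and 11114 (14.8%) higher in CDP at a Benjamini-Hochberg adjusted p under 0.05. The regions had been called from the same libraries, so these counts describe the difference against the spread between libraries and do not test it anew. The fit shares variance across regions, so the SE and p of a region draw largely on the spread over the whole list. Its median total degrees of freedom were 38.65, against 7.193 without trend and 150400 with a pseudocount of 5. Per region, 2 libraries against 2 cannot give an exact two-sided permutation p below 0.33. The median log2 ratio of the second-listed to the first-listed library was 0.50 for cDC and 0.19 for CDP over all regions. Across the list, the median of the cDC to CDP ratios was -0.18 on the log2 scale, and without the first-listed cDC library it was 0.052. After scaling the libraries to equal totals it was -0.096, with 23507 regions with separate libraries higher in cDC and 28455 higher in CDP. Scaling to equal medians, which sets this median near 0 by its construction, gave 25958 and 24875. Of neighbouring regions 1 to 5 kb apart, 70.1% had the same direction, whereas of 19237 neighbours that touch, 3.12% did. The bounds were set when the regions were called from these same libraries, so the share among touching neighbours may follow from the calling, which was not tested.

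Genes were placed on mm9 by hand, because no mm9 annotation was used here, and their positions come from recollection to the nearest kb and not from a file. A locus is the gene with 5 kb either side, and its value is the signal summed over its regions in each library. Of 161 genes written down, 157 passed a check of their positions, and 143 autosomal ones had at least 1 region. Cdk6, Ccnd1, Meis1, Nfil3, Sox4, Mycn, Klf4 and Tcf4 are among those that passed only after the check had been relaxed. Of these 143, 45 (31.5%) had both cDC libraries higher, 54 (37.8%) had both CDP libraries higher and 44 had overlapping libraries. The 143 are a chosen set, so the shares over all regions above are the better background for a list. Neighbouring loci can share regions, as at the H2 genes, Tap1 and Psmb9, the Hoxa genes, and Elane and Prtn3, and their values are then not independent.

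All 11 class II loci had both cDC libraries above both CDP libraries, with a median log2 ratio of 2.17 against -0.18 over all regions. Of their 43 regions, counted once per gene, 36 were higher in cDC with separate libraries and 1 was higher in CDP, and the limma fit called 31 higher in cDC and 0 higher in CDP (32 and 0 at an unadjusted p under 0.05). Over all regions, 22% were higher in cDC with separate libraries, and limma called 7.75% higher in cDC. Across the class II list, the lowest ratio was 0.66 and the highest 3.67.

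The 3 highest ratios belonged to chains of the classical class II molecules. H2-Ab1, the beta chain of I-A, had summed signals of 3319 and 2402 in CDP versus 30314 and 42293 in cDC, a log2 ratio of 3.67 or 12.7-fold. Its cDC libraries lay far above its CDP libraries, and nearly all of that signal came from a single region of 15200 bp at chr17:34393201-34408400 (mm9), where limma gave a difference of 3.67 (SE 0.32, adjusted p = 2.51e-10). H2-Eb1, the beta chain of I-E, had 2177 and 2436 in CDP versus 19083 and 30872 in cDC, 10.8-fold higher, and all 6 of its regions were higher in cDC. The alpha chain of I-A, H2-Aa, had 6048 and 4686 in CDP versus 39428 and 57013 in cDC, a ratio of 8.98. It had the most signal of any class II locus in cDC. Its region of 18500 bp at chr17:34418151-34436650 was the longest of the whole list. Together with adjoining H2-Eb1 regions it formed the longest stretch higher in cDC, 29.35 kb, once regions of a direction less than 1 kb apart, with separate libraries and above-median signal, were joined. H2-Eb2, a neighbouring beta chain gene, had 3172 and 1910 against 11622 and 19070, 6.04-fold higher in cDC.

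**Figure D2:**
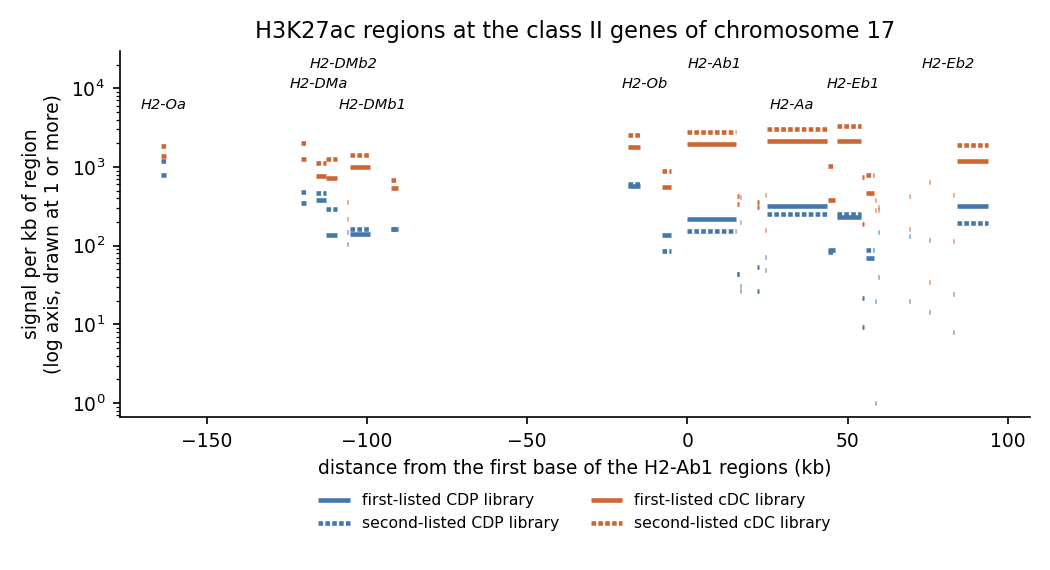
Signal per kb of each region (vertical log axis) at the class II loci of chromosome 17, by distance in kb from the first base of the H2-Ab1 regions, with 1 line per library. Over the wide regions of H2-Ab1, H2-Aa and H2-Eb1 both cDC lines lie well above both CDP lines (at H2-Ab1 30037 and 41869 in all, versus 3281 and 2366), and at H2-Oa they lie closest.

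Genes of peptide editing and of class II regulation lay in the same direction. H2-DMb1 and H2-DMb2, beta chains of the editor that exchanges invariant chain peptide for antigen, were 6.68-fold and 4.46-fold higher in cDC, and the alpha chain H2-DMa was 3.17-fold higher. With 20 kb either side the folds were 4.37 for H2-DMb1, 1.33 for H2-DMb2 and 1.26 for H2-DMa. H2-DMb1 had 1309 and 1426 in CDP versus 7663 and 10611 in cDC, with no overlap. H2-Ob, which encodes a chain of the H2-DO inhibitor of that editor, was 4.08-fold higher in cDC, and 8.72-fold with 20 kb either side. Its partner H2-Oa had the smallest class II difference, with 1208 and 1776 in CDP versus 2013 and 2716 in cDC, and limma called neither of its 2 regions, also at an unadjusted p under 0.05.

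Ciita, the coactivator of the class II genes, had 2070 and 2791 in CDP versus 9592 and 12249 in cDC, 4.49-fold higher. The difference was uneven along the gene. At chr16:10479301-10484300 the signals were 258 and 298 in CDP versus 4405 and 4208 in cDC, with a limma difference of 3.95 (SE 0.37, adjusted p = 8.54e-10). Its other regions with separate libraries had log2 ratios of 1.21 to 3.28. Cd74, the invariant chain, already carried 8977 and 9030 in CDP and had 22099 and 30009 in cDC, 2.89-fold higher. Its CDP libraries were the highest of any class II locus.

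Class I loci differed little and in both directions. Of 12 loci, 5 had both cDC libraries higher, 2 had both CDP libraries higher and 5 had overlapping libraries, with a median log2 ratio of 0.37. The peptide transporter genes Tap1 and Tap2 and the immunoproteasome genes Psmb8 and Psmb9, which lie side by side between the class II genes and share regions, had log2 ratios of 0.63 to 0.88. At Tap2, 2 of 3 regions were higher in cDC and 1 was higher in CDP with separate libraries. Limma called only the last, chr17:34346851-34348350, lower in cDC (difference -2.28, SE 0.46, adjusted p = 0.00035). Tap1 had 5662 and 8205 in CDP versus 10020 and 15561 in cDC. The heavy chain gene H2-D1 was 1.54-fold higher in cDC. None of the 51 class I regions was called higher in cDC by limma and 6 were called higher in CDP, against 7 and 6 at an unadjusted p under 0.05. The 6 are 11.8% of the list, against 14.8% over all regions.

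Nlrc5, the coactivator of class I genes, lay in the opposite direction from Ciita in its summed signals. Its summed signals were 6882 and 7359 in CDP versus 2982 and 3950 in cDC, 2.05-fold higher in CDP. That difference rested on a single region, chr8:96980901-96984100, where CDP had 3921 and 4341 against 89 and 176 in cDC. Its log2 ratio was -4.95, with a limma difference of -5.03 (SE 0.40, adjusted p = 3.30e-11). Without that region the summed signals overlapped between the cell types. At the same locus, 3 of 10 regions were higher in cDC and 4 were higher in CDP with separate libraries, and limma called 0 and 4. Calr, the chaperone calreticulin, was 1.68-fold higher in CDP. The class I split was sensitive to the cDC libraries. Without the first-listed cDC library, 9 loci were higher in cDC and 2 in CDP, and without the second-listed, 5 and 4.

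**Figure D3:**
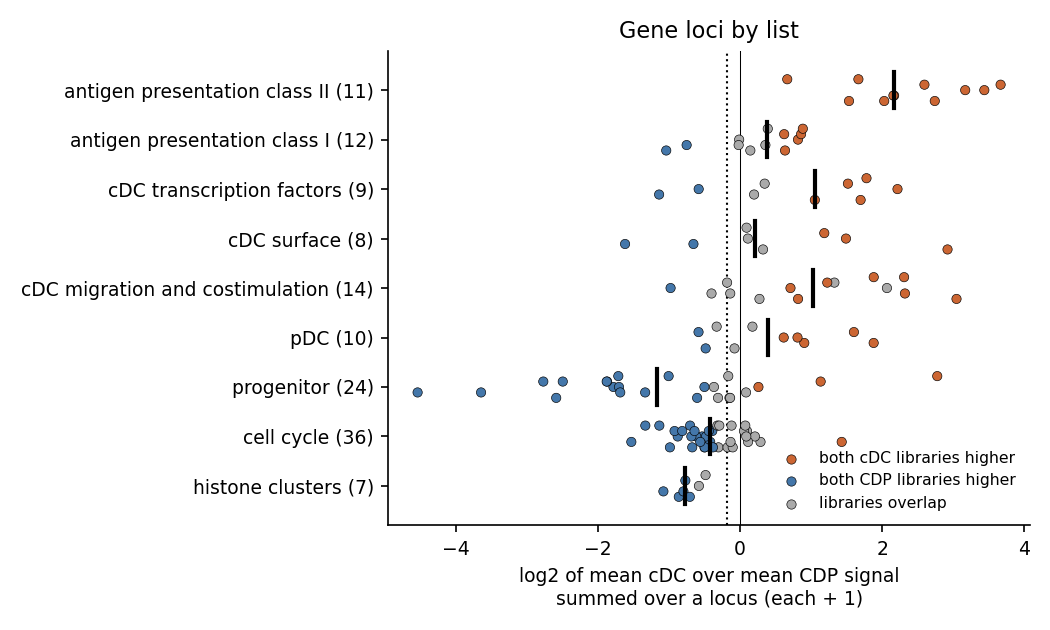
Each point is a gene locus, placed by its log2 ratio of mean cDC to mean CDP signal (horizontal axis), with 1 row for each gene list and the number of loci in brackets. Black bars are list medians and the dotted line is the median of all regions, -0.18; the class II list (median 2.17) and the progenitor list (median -1.17) lie farthest apart.

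Progenitor loci were mostly lower in cDC. Of 24 loci with a region, 15 had both CDP libraries higher, 3 had both cDC libraries higher and 6 had overlapping libraries, with a median log2 ratio of -1.17. Of their 208 regions, 119 (57.2%) were higher in CDP with separate libraries and 22 (10.6%) higher in cDC. The limma fit called 60 of the regions (28.8%) lower in cDC and 11 (5.29%) higher. For comparison, limma called 14.8% of all 75217 regions lower in cDC and 7.75% higher. Separate libraries favoured CDP in 36.2% of all regions and cDC in 22%. Mpo and Gata2 had no listed region, which does not mean a level of 0. The hand-written position of Mpo passed only after the check had been relaxed. In sorted bulk cells, a smaller share of cells carrying the mark and less of the mark in each cell cannot be told apart.

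Hoxa9 and Hoxa10, homeobox factors of immature haematopoietic cells, stood at the low end. Hoxa10 had 4430 and 5266 in CDP versus 120 and 296 in cDC, 23.2-fold higher in CDP. Hoxa9 had 12332 and 15585 against 1989 and 2108, 6.81-fold higher in CDP, and shares both Hoxa10 regions. At the shared region chr6:52174101-52177350 the signals were 2868 and 3238 in CDP versus 93 and 163 in cDC, with a limma difference of -4.62 (SE 0.41, adjusted p = 2.64e-10). The adjoining region that Hoxa9 shares with Hoxa7, chr6:52165851-52173250, kept more signal, 7902 and 10319 against 1869 and 1812. With 20 kb either side Hoxa7, Hoxa9 and Hoxa10 take in nearly the same regions, and each had a log2 ratio of -2.04.

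Other regulators of early progenitors followed. Erg, an Ets factor of stem and progenitor cells, had 25226 and 20256 in CDP versus 2280 and 5792 in cDC, 5.63-fold higher in CDP, and 17 of its 20 regions were lower in cDC with separate libraries. Its largest region, chr16:95673401-95681250, had 8583 and 7828 against 447 and 1583. Gfi1, a repressor needed in granulocyte development, had a single region with 1730 and 1968 in CDP versus 193 and 421 in cDC, a log2 ratio of -2.59. Tal1, Sox4, Mycn, Meis1 and Myb also had both CDP libraries higher, with log2 ratios of -1.88, -1.69, -1.87, -1.34 and -0.50. Limma called 2, 3, 1 and 5 regions lower in cDC at Tal1, Sox4, Mycn and Meis1. At Myb it called 0 of 9 regions, and 4 were lower in cDC at an unadjusted p under 0.05.

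Runx1, a factor needed for blood stem cells to form, was divided within. It had 40681 and 43980 in CDP versus 22731 and 32963 in cDC, 1.52-fold higher in CDP. Within it, 26 of 40 regions were higher in CDP and 4 higher in cDC. At chr16:92714901-92719800 the signals were 5335 and 6391 against 173 and 321, while chr16:92674101-92677500 had 4179 and 4445 in CDP versus 4646 and 6293 in cDC. The limma fit called 10 Runx1 regions lower in cDC and 1 higher. Flt3, the receptor whose ligand drives dendritic cell development, had 6 regions higher in cDC and 10 higher in CDP, of which limma called 4 higher in cDC and 0 lower, and its summed signals of 19548 and 22019 against 14482 and 22568 overlapped. Runx1 and Flt3 were picked out after their values had been seen.

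The list also held genes of myeloid granule proteases. Ctsg, cathepsin G, had 2031 and 2378 in CDP versus 97 and 254 in cDC, 12.5-fold higher in CDP, and all 4 of its regions were called by limma. Without the second-listed cDC library the log2 ratios of Ctsg, Hoxa10, Erg, Gfi1 and Mycn were lower still, at -4.49, -5.32, -3.32, -3.25 and -3.40. Without the first-listed, Mycn was at -1.15, and with 20 kb either side Gfi1 was at -1.61. Elane and Prtn3, the adjacent genes of neutrophil elastase and proteinase 3, were 3.44-fold and 3.28-fold higher in CDP over shared regions, and with 20 kb either side the log2 ratio of Elane was -0.91 in place of -1.78. Csf1r, the receptor of macrophage colony-stimulating factor, was 2.01-fold higher in CDP, with 6165 and 8589 against 2790 and 4561.

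Kit, the receptor of stem cell factor and a marker of early progenitors, went the other way. Its summed signals were 869 and 1042 in CDP versus 5565 and 7518 in cDC, 6.84-fold higher in cDC. All 5 of its regions were higher in cDC with separate libraries and all 5 passed limma, with the smallest p at chr5:75970801-75973650 with 299 and 435 against 3859 and 3774 (difference 3.40, SE 0.37, adjusted p = 1.71e-08). In the list of MPP and CDP, which is scaled on its own and shares the CDP libraries, the Kit locus had 5084 and 3595 for MPP and 235 and 382 for CDP over 2 regions. In the list of cDC and pDC, it had 5220 and 6946 in cDC versus 1501 and 1984 in pDC over 6 regions. In the list of CDP and pDC it had 218 and 366 in CDP versus 1000 and 1339 in pDC over 1 region. In each of the 3 lists that hold the CDP libraries, CDP was the lower side at Kit. Cebpe, a factor of granulocyte maturation, and Cebpa, a factor of myeloid progenitors, were 2.19-fold and 1.20-fold higher in cDC. Of these, Cebpa had signals of 3536 and 3873 against 4403 and 4461, and was divided within. Of its 7 regions, 2 were higher in cDC and 2 higher in CDP with separate libraries. The limma fit called 0 of them higher in cDC and 1 lower. That region, chr7:35911851-35913000, had 797 and 408 in CDP versus 49 and 85 in cDC. With 20 kb either side the log2 ratio of Cebpa was 0.029 in place of 0.26.

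**Figure D4:**
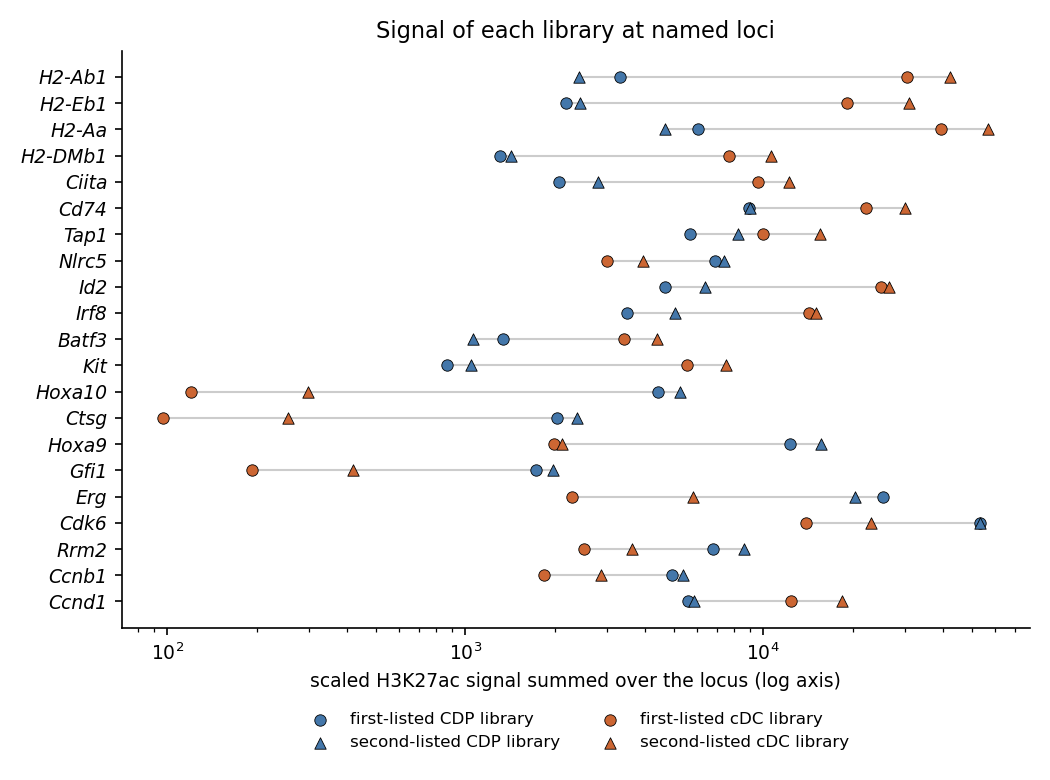
Summed H3K27ac signal of each of the 4 libraries (horizontal log axis) at 21 loci, with CDP in blue and cDC in orange and the 2 libraries of a cell type as circle and triangle. All 21 were taken from loci whose libraries do not overlap between the cell types, so that separation is by choice. Hoxa10 runs from 120 in cDC to 5266 in CDP and H2-Ab1 from 2402 in CDP to 42293 in cDC.

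Cell cycle loci were lower in cDC by modest amounts. Of 36 loci, 21 had both CDP libraries higher, 1 had both cDC libraries higher and 14 had overlapping libraries, with a median log2 ratio of -0.43. Of their 201 regions, 98 (48.8%) were higher in CDP with separate libraries and 31 (15.4%) higher in cDC, and limma called 33 (16.4%) lower in cDC and 7 higher. Over all regions the shares were 36.2% higher in CDP with separate libraries and 14.8% called lower in cDC by limma. Cdk6 alone held 35 of the 98 and 24 of the 33, and of the other 160 cell cycle regions 63 (39.4%) were higher in CDP and limma called 9 (5.62%), so that apart from Cdk6 the list lay near or below these shares. With the libraries scaled to equal medians 20 loci were higher in CDP and 7 in cDC, and without the first-listed cDC library 21 and 7.

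Cdk6, a kinase of the G1 phase that is prominent in blood progenitors, had the lowest ratio of the list. Its signals were 53345 and 53429 in CDP versus 13944 and 23042 in cDC, 2.89-fold higher in CDP, and 35 of its 41 regions were lower in cDC with separate libraries. Within the gene a region of 17650 bp, chr5:3488501-3506150, had 28375 and 26632 in CDP versus 3515 and 6960 in cDC. By contrast chr5:3340251-3346100 had 9701 and 11975 in CDP and kept 6770 and 8198 in cDC. The limma fit called 24 of the 41 regions, all lower in cDC.

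Genes of S phase and mitosis had smaller differences. Rrm2, the ribonucleotide reductase subunit that supplies DNA precursors, had 6798 and 8624 in CDP versus 2505 and 3617 in cDC, 2.52-fold higher in CDP. Ccnb1 and Ccnb2, the B-type cyclins of mitosis, had log2 ratios of -1.14 and -0.99, and their kinase Cdk1 had -0.92. Ccnb1 had 4931 and 5386 against 1838 and 2857. Of the Mcm genes of the replicative helicase, Mcm3, Mcm4, Mcm5, Mcm6 and Mcm7 had both CDP libraries higher, with log2 ratios of -0.56 to -0.81, and Mcm2 had overlapping libraries at -0.10. No region of the 6 Mcm loci passed limma after adjustment; at an unadjusted p under 0.05, 2 did at Mcm6 and 1 each at Mcm4, Mcm5 and Mcm7. Pcna, Mki67 and Cdk2 also had overlapping libraries.

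Ccnd1, a D-type cyclin that partners Cdk4 and Cdk6, was the only cell cycle locus with both cDC libraries higher. It had 5591 and 5854 in CDP versus 12418 and 18426 in cDC, 2.69-fold higher in cDC, from a region of 8150 bp at chr7:152121801-152129950 (limma difference 1.53, SE 0.32, adjusted p = 0.000481). The other D-type cyclins, Ccnd2 and Ccnd3, had log2 ratios of 0.21 and 0.10 with overlapping libraries. Ccnd3 was divided within, with 8 regions higher in each direction. Of the histone clusters only 7 genes were placed, Hist1h1a to Hist1h1e, Hist2h2be and Hist2h3c2, so the clusters as a whole were not covered. These genes, whose products are needed in S phase, were lower at 5 of 7 loci, with a median log2 ratio of -0.77 and the other 2 overlapping. Hist2h3c2 had 11827 and 18336 in CDP versus 5283 and 9000 in cDC. The limma fit called 8 of the 22 histone regions lower in cDC and 0 higher (12 and 0 at an unadjusted p under 0.05). The 8 are 36.4% of the histone regions, against 14.8% over all regions. At all 7 histone loci the second-listed CDP library exceeded the first by 0.56 to 0.72 on the log2 scale, against 0.19 over all regions.

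Transcription factors of cDC development were higher in cDC at 5 of 9 loci, lower at 2 and overlapping at 2. Of their 64 regions 32.8% were higher in cDC and 21.9% higher in CDP with separate libraries, against 22% and 36.2% over all regions. Limma called 11 (17.2%) higher in cDC and 6 (9.38%) lower, against 7.75% and 14.8% over all regions. Id2, the inhibitor of E proteins that favours cDC over pDC, had 4683 and 6367 in CDP versus 24792 and 26516 in cDC in a single region of 9400 bp, 4.64-fold higher. Irf8 had 3484 and 5057 against 14294 and 15017, 3.43-fold higher, a log2 ratio of 1.78 that was 1.38 with 20 kb either side. Of its 13 regions, 6 were higher in cDC with separate libraries. Limma called 1 of the 13, chr8:123259401-123268800, higher in cDC. Batf3, a factor of the cDC1 subset, was 3.24-fold higher in cDC, 6.04-fold over the gene body alone and 1.95-fold with 20 kb either side. Nfil3, which acts in early cDC1 development, and the receptor Notch2 were higher in CDP, with log2 ratios of -1.14 and -0.58. The second-listed cDC library exceeded the other by 0.097 at Id2 and 0.071 at Irf8 on the log2 scale.

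Surface markers of cDC were divided. Of 8 loci with a region, Cd209a, Clec9a and Dpp4 were higher in cDC (7.56-fold, 2.81-fold and 2.27-fold), and 3 overlapped, among them Itgax, the gene of CD11c. Under both scalings, and without the first-listed cDC library, 6 were higher in cDC and 2 in CDP. Of their 53 regions 30.2% were higher in cDC and 24.5% higher in CDP with separate libraries, against 22% and 36.2% over all regions. Cd209a, with few signals in CDP, was 15.7-fold higher without the second-listed CDP library and 4.98-fold without the first-listed. Sirpa, a marker of the cDC2 subset that progenitors and macrophages also express, had 20440 and 20288 in CDP versus 4686 and 8584 in cDC, and all 7 of its regions were lower in cDC. Cd24a was 1.58-fold higher in CDP. Clec9a had 1794 and 1588 against 4146 and 5358, and Xcr1, like Clec9a a marker of cDC1, overlapped at 10100 and 11468 against 8991 and 14289. Most of that sum came from chr9:123760001-123762800, with 8056 and 9461 in CDP versus 5015 and 7639 in cDC, whereas chr9:123767501-123772150 had 303 and 281 versus 2313 and 4410, 11.5-fold higher in cDC (limma difference 3.45, SE 0.39, adjusted p = 3.35e-08). Cd8a had no listed region.

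Several costimulation and migration loci differed widely between the cDC libraries. Of 14 loci with a region, 7 were higher in cDC, 1 was higher in CDP and 6 overlapped, with a median log2 ratio of 1.02. Of their 64 regions 34.4% were higher in cDC and 18.8% higher in CDP with separate libraries, against 22% and 36.2% over all regions. Limma called 12 (18.8%) higher in cDC and 5 (7.81%) lower, against 7.75% and 14.8% over all regions. Ccl17, a chemokine for T cells, had 82 and 125 in CDP versus 811 and 912 in cDC. The activation marker Cd83 was 4.99-fold and the costimulatory receptor Cd40 4.95-fold higher in cDC, and 2.90-fold and 2.45-fold without the second-listed cDC library. Without the first-listed CDP library Cd83 was 8.19-fold higher, without the first-listed cDC library Cd40 was 7.45-fold higher, and with 20 kb either side Cd83 was 2.91-fold higher. By contrast Socs2, a suppressor of cytokine signals, was 1.97-fold higher in CDP. Its log2 ratio of -0.98 was -1.75 without the second-listed cDC library and 0.53, higher in cDC, with 20 kb either side.

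Ccr7, the receptor that guides dendritic cells to lymph nodes, had 446 and 855 in CDP versus 432 and 5023 in cDC. The first-listed cDC library was at the CDP level and the second far above it, so Ccr7 had overlapping libraries. The list median of the log2 ratio of second-listed to first-listed cDC library was 1.17, with Ccl17 (0.17), Il12b (0.31), Cd86 (0.35) and Relb (0.42) at the low end. Over the 36319 regions with a summed signal of at least 1000 the median gap was 0.45, above those 4 loci, and the 95th percentile 1.45. Beyond that percentile lay, besides Ccr7, Fscn1 (1.53), Cd40 (1.61) and Ccl5 (1.82) of the same list, and Irf7 (1.74), Pax5 (1.83) and Mycn (2.25) of others. Without the first-listed cDC library 13 of the 14 loci were higher in cDC, and without the second-listed 7 were higher in cDC and 6 in CDP. What sets the cDC libraries apart was not tested.

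**Figure D5:**
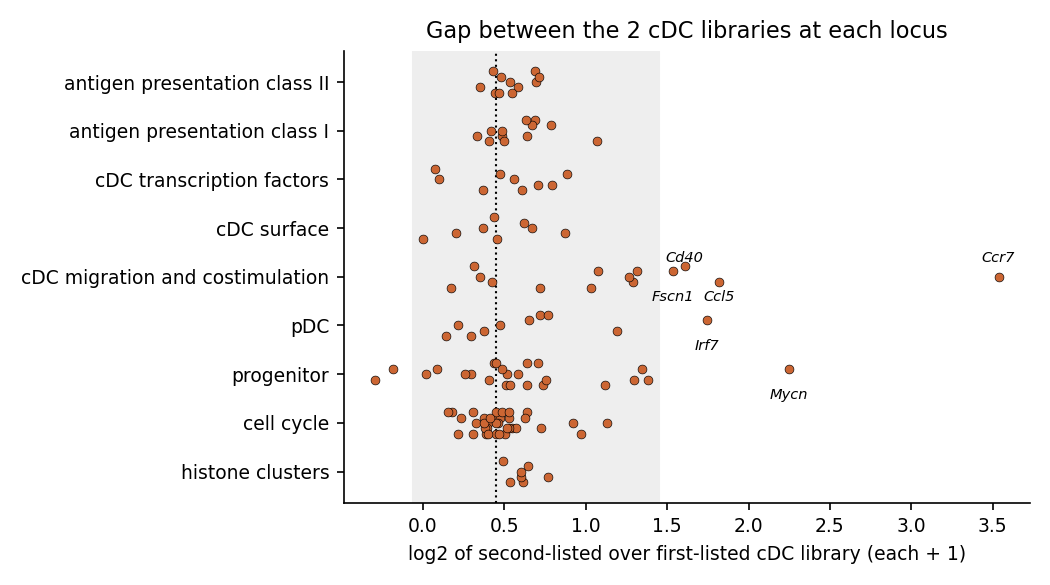
Each point is a locus, placed by the log2 ratio of the second-listed to the first-listed cDC library (horizontal axis), with 1 row for each gene list. The dotted line is the median of regions with summed signals of at least 1000 (0.45) and the grey band runs from their 5th to their 95th percentile; Ccr7 lies farthest out at 3.54.

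By locus, markers of other cell types showed no common direction, but their regions called by limma were mostly higher in cDC. Of 16 placed marker loci of B cells, T cells, macrophages, neutrophils, erythroid and mast cells, 8 had no listed region, among them S100a8, S100a9, Marco, Camp, Cpa3 and Mcpt8. Of the 8 others, 3 were higher in cDC, 2 were higher in CDP and 3 overlapped. Of their 23 regions 30.4% were higher in cDC and 26.1% higher in CDP with separate libraries, against 22% and 36.2% over all regions. Limma called 5 (21.7%) higher in cDC, at Cd3e, Ebf1 and Adgre1, and 1 (4.35%) lower, against 7.75% and 14.8% over all regions. Cd3e, a T cell receptor subunit, had 5 and 55 in CDP versus 486 and 644 in cDC, and the B cell factor Ebf1 had 7 and 34 against 132 and 224. Epor had 2043 and 1913 against 2585 and 3246. Without the second-listed CDP library the log2 ratio of Cd3e was 6.56 in place of 4.19 and that of Ebf1 4.48 in place of 3.06, without the first-listed they were 3.34 and 2.35, and with 20 kb either side Cd3e was at 0.60. In the CDP direction, Pax5 had 554 and 685 against 136 and 487, with a log2 ratio of -0.99 that was -0.35 without the first-listed and -2.18 without the second-listed cDC library, and Klf1 had 3860 and 4460 against 2723 and 3556. The other T cell subunit, Cd3g, overlapped with 3509 and 2720 against 2935 and 3946, as did the B cell receptor gene Cd79a with 3243 and 5022 against 3438 and 3482, and the macrophage gene Adgre1 with 275 and 431 against 410 and 812. Over the 8 loci the libraries ranged from 5 to 5022 in CDP and from 132 to 3946 in cDC, and the part of other cells in the results was not tested.

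Of 10 pDC loci, 5 were higher in cDC, 2 were higher in CDP and 3 overlapped. Of their 162 regions 24.1% were higher in cDC and 34.6% higher in CDP with separate libraries, near the shares over all regions. Siglech, a surface receptor of pDC, had 253 and 469 in CDP versus 1159 and 1503 in cDC, a log2 ratio of 1.88 that was 0.065 with 20 kb either side. In the list of CDP and pDC, scaled on its own, it had 1540 and 2350 in CDP versus 37249 and 40985 in pDC over a single wider region. Irf7 and Bst2, which respond to interferon, were 3.04-fold and 1.87-fold higher in cDC, and 1.40-fold and 1.14-fold without the second-listed cDC library. Without the first-listed, Irf7 was 4.68-fold higher. Tcf4, the E protein that specifies pDC, and Runx2 were higher in CDP, with log2 ratios of -0.58 and -0.48.

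The other lists, which share libraries with this one and are scaled separately, gave these loci as follows. H2-Ab1 had 747 and 323 in MPP versus 1432 and 1383 in CDP, 2034 and 1679 in CDP versus 2301 and 4858 in pDC, and 29870 and 41971 in cDC versus 3506 and 7648 in pDC. Ciita, by contrast, had 8936 and 10947 in cDC versus 7400 and 10563 in pDC, which overlap, after 1295 and 1907 in CDP versus 5942 and 8741 in pDC. Id2 had 909 and 497 in MPP versus 3526 and 4881 in CDP, and 3908 and 5344 in CDP versus 4425 and 5324 in pDC.

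Among loci lower in cDC, Cdk6 had 53847 and 39174 in MPP versus 40736 and 42237 in CDP, which overlap, and 43698 and 44200 in CDP versus 12180 and 12813 in pDC. Gfi1 had 7939 and 6138 in MPP versus 1570 and 1755 in CDP, and 168 and 319 in cDC versus 2280 and 2637 in pDC. Ccnd1, which was higher in cDC than in CDP, had 4975 and 5348 in CDP versus 16887 and 15346 in pDC. Each comparison rests on the regions called in its own list, so the regions summed differ.

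Single regions with the largest ratios lay outside the gene lists. Among regions with separate libraries and at least the median signal of their direction, the 5 largest ratios of cDC to CDP were 80.0 to 228. The largest, chr13:48610751-48612750, had 8 and 0 in CDP versus 740 and 1535 in cDC, and no gene was placed there, nor at chr3:105835451-105836000, chr19:29040551-29041900 and chr3:129944301-129946450. The other of the 5, chr11:45869251-45872800, lay in Adam19, a membrane protease gene placed after its value had been seen, with 24 and 18 in CDP versus 2708 and 4695 in cDC. All 5 Adam19 regions were higher in cDC, and the locus as a whole was 12.4-fold higher. The 5 largest in the CDP direction included chr19:29899301-29900150, with 404 and 432 in CDP and listed at 0 in both cDC libraries, and chr3:115344351-115346450, with 1210 and 1677 against 6 and 4. The remaining 3 were chr3:115397751-115399100, with 936 and 725 against 0 and 4, chr12:8516751-8517350 and chr1:173305701-173306400, and no gene with a region was placed at any of the 5. Over all regions with separate libraries, 34 were listed at 0 in both CDP libraries and 126 in both cDC libraries.

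The longest joined stretch was higher in CDP. It spanned 57.05 kb in 9 regions at chr11:86387301-86444350, in Vmp1, an autophagy gene also placed after its values had been seen, and had 153069 and 148492 in CDP versus 44501 and 76878 in cDC, 2.48-fold higher in CDP. Next were 39.5 kb and 26.9 kb in the histone cluster of chromosome 13, 21.6 kb at chr13:63341351-63362950, and 19.75 kb in Cdk6 with a ratio of 5.26. The longest stretches higher in cDC after the H2-Aa and H2-Eb1 stretch were 16.2 kb at chr5:114275851-114292050, the 15.2 kb at H2-Ab1, 13.4 kb at Actb, the gene of beta actin, and 13.35 kb at chr7:87181951-87195300. Actb, placed after its values had been seen as well, had 12375 and 19161 in CDP versus 25797 and 39878 in cDC, 2.08-fold higher.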

How the data were processed

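H3K27ac chromatin immunoprecipitation was sequenced in 2 libraries each of CDP and cDC. Per the labels the antibody was ab4729 from Abcam, whereas the protocol in the labels names another supplier. Per the submitters' processing notes, reads were aligned with BWA 0.6.1 to mm9. Differential regions came from THOR, which is named in the title, with settings not given in the sources used here. For each region the deposited tables hold 4 signals, whole numbers that the authors had scaled per library and list and that are not read counts (unit: other). The deposited p-value was not used. Group order was taken from the list name: in regions with equal bounds in another list, 6 matching pairs of values had an SD of log2 of 0.010 to 0.060, and 18 others at least 0.595. Input libraries and RNA were not analysed here.

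Ratios are log2 of group means plus a pseudocount of 1. Regions were fitted with limma 3.58.1 (R 4.3.3, trend, Benjamini-Hochberg over 75217 regions), tested on simulated data first. Sums and figures used Python 3.11.15 with pandas 2.3.3, numpy 2.4.6 and matplotlib 3.10.9. Region coordinates are 1-based mm9. Promoters come from RefSeq (GRCm38.p6); a longer form of the X box letters was searched first.

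Gene positions in mm9 were written by hand from memory, after the files had been seen. Each was checked by whether, with spacing taken from the RefSeq table of another build (GRCm38.p6), the ends of coding genes within 2 Mb fell on listed regions more often than after at least 99% of shifts of up to 300 kb. A first setting, neighbours within 1 Mb and 99.5%, kept 143 of 161 genes. It was relaxed after its outcome had been seen and with earlier results known, which kept 157 and readmitted Cdk6, Ccnd1, Meis1, Nfil3, Sox4, Mycn, Klf4 and Tcf4 among others. Spans over 5 kb longer than in that table were dropped. Not placed were Myc, Zbtb46, Ikzf2 and Clec4a2. Named genes are up to 5 a direction in the class II, class I, progenitor and cell cycle lists and up to 3 in the others, by log2 ratio among loci with separate libraries; further genes were named after their values were seen. Members and lists were chosen with earlier results of these data known. Alternatives changed the pseudocount, scaling, libraries, region filters, flanks, limma trend and position check.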

Additional observations from a re-analysis of the deposited data

How the results depend on the processing

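The median log2 ratio over all regions, -0.18, was -0.096 with equal totals, near 0 by construction with equal medians (0.0026) and 0.052 without the first-listed cDC library, was -0.53 without regions that touch another (chosen after seeing the data), and ran from -0.44 to 0.052 over the libraries left out. Regions with separate libraries higher in cDC, 16563, became 25958 with equal medians and 10000 with the filter on the median signal, and ran from 17185 to 33329 with a library left out. Those higher in CDP, 27226, became 12530 with that filter and 15728 at 500 bp or more, both with fewer regions tested, and ran from 28123 to 44742. A lone library passes the rule of separate libraries more easily. Gene loci higher in cDC ran from 46 to 70 and those higher in CDP from 54 to 80. The limma counts, 5828 and 11114, were 10216 higher in cDC with equal medians, 3353 higher in cDC without trend, and 5671 and 7068 higher in CDP with the filter and the length minimum; with a library left out they ran from 2448 to 5070 and from 4263 to 13959. Except where a filter left fewer regions, the cause was not tested.

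All 11 class II loci remained higher in cDC under both scalings, both pseudocounts, the gene body alone, the stricter position check and with any 1 of the 4 libraries left out, and 10 did with 20 kb either side. Under the stricter position check (chosen after seeing the data) the loci higher in cDC and in CDP were 43 and 48 of 130, with 12 of 20 progenitor loci and 20 of 32 cell cycle loci higher in CDP and 0 cell cycle loci higher in cDC, since Ccnd1 was then left out. With 20 kb either side Socs2 turned to 0.53, and 20 of 143 loci moved by more than the spread between libraries. No paired analysis was possible because the listed signals carry no replicate number. Read depth is unknown, so counting error could not be given.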
